A study of Mus musculus with 8 samples.

Results

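The genes described here are 38 members of glycolysis, lactate handling and glycogen metabolism, chosen by symbol among the 32285 feature rows of the count tables. Each member symbol had at least 1 row. Aldoa had 2, the second holding 3 UMIs in all, so the 38 symbols took 39 rows. A UMI (unique molecular identifier) marks 1 captured RNA molecule. The members were read beside Aldoc, the brain-enriched aldolase that is widely used as an astrocyte marker, in barcodes that resembled astrocytes, neurons and oligodendrocytes.

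The study profiled tdTomato-positive nuclei sorted from the ventricular-subventricular zone (V-SVZ) of mice at postnatal day 90, with 4 Tsc2 wt/wt mice and 4 Tsc2 mut/mut mice and 1 droplet 3′ library per mouse. The tdTomato reporter sits at ROSA26 and is switched on by Cre, so both genotypes had cells with Cre activity. The study describes a tamoxifen-induced Nestin-CreERT2, driven by a neural stem cell (NSC) promoter, and electroporation of a Cre plasmid into neonatal pups, and which of them these mice received is not stated. In Tsc2 mut/mut mice the conditional Tsc2 alleles are inactivated by Cre. Tsc2 encodes tuberin, an inhibitor of the growth kinase complex mTORC1. The deletion of exons is not visible in counts of 3′ ends: Tsc2 was at 12.7 ± 0.98 CPM (UMIs scaled to 1000000 per mouse and class) in Tsc2 wt/wt mice and at 11.5 ± 1.5 CPM in Tsc2 mut/mut mice (mean ± SD, n = 4 each), and this level does not check the labels.

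Libraries held 11182335 to 36773832 UMIs, and 1923 to 10153 barcodes per library carried at least 300 genes, 37881 in all, with a median of 888 to 1324.5 UMIs per barcode. Mitochondrial transcripts made up 34.0 to 44.6% of the UMIs of these barcodes, although nuclei were sorted. Depth differed by genotype, with 11182335 to 33345765 UMIs and 1923 to 7427 kept barcodes in Tsc2 wt/wt libraries. Tsc2 mut/mut libraries held 21908321 to 36773832 UMIs and 3394 to 10153 kept barcodes. Apart from Tsc2 wt/wt mouse 2 (33345765 UMIs), every Tsc2 wt/wt library was below every Tsc2 mut/mut library. The part of depth in differences between genotypes was not tested. Clustering was run with the members left out. It gave 18 clusters, of which 13 could be named from marker lists, and the other 20020 barcodes (52.85%) stayed unnamed. The NSC/astrocyte-like barcodes fell into a mitochondria-rich cluster of 3646 barcodes (289 to 802 per mouse), which carried 25 of 26 listed markers, and a nucleus-like cluster of 1303 barcodes (62 to 356 per mouse), which carried 20 of 26. The oligodendrocyte-like barcodes comprised 4543 mitochondria-rich barcodes and a nucleus-like cluster of 697, which carried 15 of 16 listed markers. Of the mitochondria-rich ones, 3847 were in a cluster with only 4 of 16 markers raised and 696 in a cluster with 15 of 16. In this mitochondria-rich class, NSC/astrocyte markers made up 1.62 to 2.39% of UMIs and oligodendrocyte markers 0.522 to 0.806%. For most of the class the name therefore rests on few genes. The neuron-like barcodes were a single mitochondria-rich cluster of 4399, with the striatal genes Adora2a and Drd2 among its leading genes. Only 12 of its 33 listed markers were raised, and NSC/astrocyte markers made up more of its UMIs (1.34 to 2.28%) than neuron markers did (0.872 to 1.27%), so the name rests on few genes. A pool of 188560 low-count barcodes, with 100 to fewer than 200 genes each, served as a reference level within each library. Its place in the library differed between mice. Barcodes under 100 genes, below the pool, numbered 39013, 3, 47889 and 32476 in Tsc2 wt/wt mice 1 to 4. They numbered 0, 21383, 0 and 21 in Tsc2 mut/mut mice 1 to 4. In that pool, NSC/astrocyte markers made up 1.89 to 2.27% of UMIs and neuron markers 0.909 to 1.24%, ranges that the neuron-like barcodes overlapped. Tsc2 mut/mut mouse 4 stood apart in the nucleus-like NSC/astrocyte-like cluster, with 62 barcodes and 34.8% mitochondrial UMIs against 3.26 to 8.84% in the other 7 mice. Results on that cluster are given with and without this mouse. Among 37714 distinct barcode sequences, 166 occurred in more than 1 library.

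Glycolysis splits glucose into pyruvate in the cytosol, in an upper set of steps that spends ATP and a lower set that returns it. Pyruvate is then reduced to lactate or carried into mitochondria for oxidation. Astrocytes are the main site of glycogen in brain, and they are known for aerobic glycolysis and for release of lactate that neurons and oligodendrocytes can take up. Part of the pathway is under the control of HIF1A, the oxygen-regulated transcription factor that is itself increased by mTORC1 signalling.

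Promoter sequence is shown for 2 members on which the results turn: Aldoc, the most abundant member in every mitochondria-rich class, and Slc2a1, the glucose transporter with the widest mean ratio between mitochondria-rich NSC/astrocyte-like and neuron-like barcodes. Sequences are from RefSeq on GRCm38.p6, on the plus strand, and end just before the annotated gene start. Capitals mark the letters GCGTG or ACGTG, the core that HIF1A recognises, read on either strand.
Aldoc, chr11:78322823-78322967: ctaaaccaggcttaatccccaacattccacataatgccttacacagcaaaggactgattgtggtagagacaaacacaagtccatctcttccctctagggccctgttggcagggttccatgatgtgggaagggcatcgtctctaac
Slc2a1, chr4:119108495-119108710: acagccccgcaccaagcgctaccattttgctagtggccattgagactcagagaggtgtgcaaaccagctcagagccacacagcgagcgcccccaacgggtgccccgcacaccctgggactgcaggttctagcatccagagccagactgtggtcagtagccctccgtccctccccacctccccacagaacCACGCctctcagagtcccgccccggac
The 216 bases of Slc2a1 held the letters once, on the minus strand, and the 145 bases of Aldoc did not hold them. Both genes held a core in the longer window of 250 bases used for the counts, which for Aldoc lay outside the stretch shown. The counted windows are those of the promoter entries, and they are not cut at the annotated gene start as the stretches shown are. In these windows, either core was present in 31 of the 36 members with a promoter entry (86.11%), against 41.54% of 27025 genes. Members have more promoter entries per gene, which gives each more chances. Counted per promoter, either core was present in 41 of 55 (74.55%), against 38.6% of 32851. Base content was not matched between members and other genes. The letters ACGTG alone were present in 18 of 36 members (50%) and in 18.49% of genes. A match of letters is a description of the sequence and not a binding site.

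Aldoc (chromosome 11, 78322968 to 78327781, plus strand, GRCm38) was the most abundant member in the mitochondria-rich NSC/astrocyte-like barcodes, at 3254, 2695, 3227 and 3275 CPM in Tsc2 wt/wt mice 1 to 4 and 2424, 2404, 2197 and 2329.7 CPM in Tsc2 mut/mut mice 1 to 4. The lowest Tsc2 wt/wt level stood above the highest Tsc2 mut/mut level. In neuron-like barcodes its level was 976, 1203, 1155 and 1162 CPM in Tsc2 wt/wt mice and 1161, 839.9, 1175 and 1172 CPM in Tsc2 mut/mut mice, and the genotypes overlapped. Mitochondria-rich oligodendrocyte-like barcodes lay between the other classes, with 1451, 1327, 1485 and 1375 CPM in Tsc2 wt/wt mice and 1256, 1113, 1291 and 1232 CPM in Tsc2 mut/mut mice. The low-count barcodes, which carry no cell type label, held 1552, 1316, 1396 and 1443 CPM in Tsc2 wt/wt mice and 1221, 1160.3, 1147 and 1226 CPM in Tsc2 mut/mut mice. The Aldoc level in oligodendrocyte-like barcodes was therefore close to that in the low-count pool of the same libraries, at 0.93 to 1.12 of it. In neuron-like barcodes it was at 0.63 to 1.02 of the pool level, and below it in most mice. At least 1 Aldoc UMI was seen in 81.8 to 96.2% of mitochondria-rich NSC/astrocyte-like barcodes and in 64.7 to 76.3% of neuron-like barcodes, a class that should hold little Aldoc.

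Gapdh, the glyceraldehyde-3-phosphate dehydrogenase of lower glycolysis, came next in level. Its level in mitochondria-rich NSC/astrocyte-like barcodes was 1504, 1447, 1561 and 1349.9 CPM in Tsc2 wt/wt mice and 1184, 1116, 1060.3 and 1191 CPM in Tsc2 mut/mut mice. Again the 2 genotypes did not overlap. In neuron-like barcodes Gapdh was at 578, 750.5, 727 and 645 CPM in Tsc2 wt/wt mice and 791, 627, 652 and 762 CPM in Tsc2 mut/mut mice, and the genotypes overlapped.

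Ldhb, the lactate dehydrogenase subunit that is the more abundant of the pair in brain, was at 737, 757, 658 and 643 CPM in mitochondria-rich NSC/astrocyte-like barcodes of Tsc2 wt/wt mice and at 535, 591, 585 and 526 CPM in those of Tsc2 mut/mut mice. In neuron-like barcodes it was at 284, 340.3, 344 and 288 CPM in Tsc2 wt/wt mice and at 300.2, 306, 340.2 and 354 CPM in Tsc2 mut/mut mice. As with Aldoc and Gapdh, the NSC/astrocyte-like level was the higher in each of the 8 mice. Aldoa, the aldolase of most tissues, was at 565, 458, 505 and 522 CPM in NSC/astrocyte-like barcodes of Tsc2 wt/wt mice and at 486, 427, 371 and 439 CPM in those of Tsc2 mut/mut mice. Here the genotypes overlapped. Counts of 3′ UMIs are molecules and were not divided by gene length, and reads shared with near-identical genomic copies, which Gapdh and Eno1 have, cannot be assigned, so the order among these genes is approximate.

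**Figure D1:**
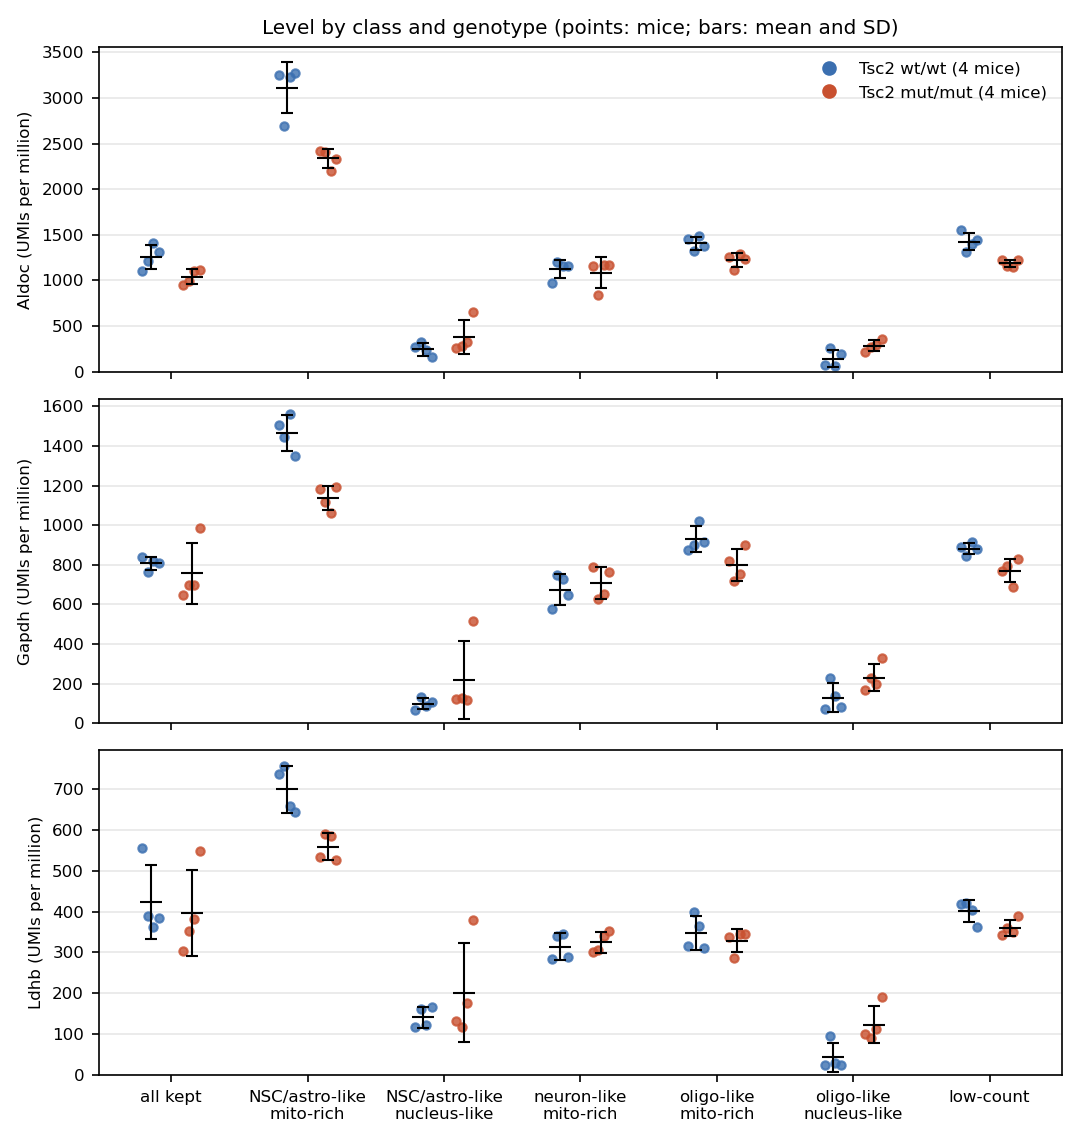
Level (CPM, linear axis from 0) of Aldoc, Gapdh and Ldhb in each barcode class, with 1 point per mouse and bars at the mean ± SD of the 4 mice of each genotype. Aldoc in mitochondria-rich NSC/astrocyte-like barcodes averaged 3113 ± 279 CPM in Tsc2 wt/wt mice and 2339 CPM in Tsc2 mut/mut mice, above every other class.

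All members together took 0.904 ± 0.054% of the UMIs of mitochondria-rich NSC/astrocyte-like barcodes in Tsc2 wt/wt mice (range 0.838 to 0.968%) and 0.723 ± 0.021% in Tsc2 mut/mut mice (range 0.693 to 0.741%). Without Aldoc these shares were 0.593 ± 0.036% and 0.489 ± 0.011%. In neuron-like barcodes the members took 0.393 ± 0.032% in Tsc2 wt/wt mice and 0.40 ± 0.043% in Tsc2 mut/mut mice. Low-count barcodes held 0.494 ± 0.022% and 0.435 ± 0.014%.

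The next comparison asked which members differed between mitochondria-rich NSC/astrocyte-like and neuron-like barcodes of the same mouse. Classes came from clustering the same barcodes, so the ratios are descriptions with no test. A member was called when its mean log2 ratio of CPM + 1 was at least 2-fold, its direction was shared by all 8 mice and its level reached 5 CPM in either class. Of 36 members that reached the level, 15 were higher in NSC/astrocyte-like barcodes and 0 lower, where 17.4% of all genes were called higher and 0.641% lower. The 15 became 9 with at least 200 genes per barcode, 9 at resolution 0.4 and 8 with classes from marker scores. At resolution 0.4 the neuron-like class held 955 to 4904 barcodes per mouse, against 236 to 1265 here, so it was a broader class. The share of all genes called was counted in the main setting only, here and in the comparisons below, so these counts have no such share beside them. The members' median log2 ratio was 1.03, with 34 of 36 above 0, and that of all genes was 0.60, with 82.2% above 0. Hk2, an inducible hexokinase, and Slc16a7, a monocarboxylate transporter, did not reach the level. NSC/astrocyte markers made up 4.33 to 5.32% of UMIs in the first class and 1.34 to 2.28% in the second.

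Slc2a1 had the widest ratio of any member, and 1 of the 2 uptake members at the level was called. Slc2a1, which encodes the glucose transporter GLUT1 of astrocytes and of the blood-brain barrier, was at 51.4, 27.0, 24.9 and 25.3 CPM in NSC/astrocyte-like barcodes of Tsc2 wt/wt mice and at 16.1, 11.7, 25.9 and 20.9 CPM in those of Tsc2 mut/mut mice. Its level in neuron-like barcodes was 0, 2.62, 4.53 and 0 CPM in Tsc2 wt/wt mice and 4.38, 1.40, 3.37 and 2.58 CPM in Tsc2 mut/mut mice. The lowest NSC/astrocyte-like level was thus above the highest neuron-like level, and the log2 ratio was 3.11 ± 1.37 (SD, n = 8 mice). Slc2a1 reached the level only in NSC/astrocyte-like barcodes. With 13 UMIs in all neuron-like barcodes, the size of this ratio, and so its rank, depends on the 1 CPM added to each level. Hk1, the hexokinase that traps glucose in brain cells, was not called, at 42.2 to 74.7 CPM in NSC/astrocyte-like and 21.2 to 74.9 CPM in neuron-like barcodes. Hk2 lay between 0 and 4.61 CPM in both classes.

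In upper glycolysis, 4 of the 8 members that reached the level were called higher, with a median log2 ratio of 1.23 over the 8. They were Aldoc (1.29 ± 0.30) and the 3 phosphofructokinase genes, which encode the enzyme of the committed step. Pfkm had a log2 ratio of 1.39 ± 0.60, Pfkp of 1.55 ± 0.63 and Pfkl of 1.17 ± 0.78. Pfkm was the most abundant of the 3, at a median of 133 CPM (89.9 to 178) in NSC/astrocyte-like and 49.5 CPM (33.5 to 69.9) in neuron-like barcodes, and the ranges did not overlap. Aldoa was higher in all 8 mice, but by less than 2-fold (0.72 ± 0.23). Gpi1, glucose-6-phosphate isomerase, ran from 174 to 272 CPM in NSC/astrocyte-like and from 113 to 152 CPM in neuron-like barcodes. Pfkfb3, whose product activates phosphofructokinase, lay at 0 to 15.6 CPM and 0 to 9.60 CPM.

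Lower glycolysis differed less. Eno1, the enolase of glia and most tissues, was the 1 member called among 7 (log2 ratio 1.44 ± 0.50, with 122 to 311 CPM in NSC/astrocyte-like and 43.8 to 76.6 CPM in neuron-like barcodes). Gapdh (0.91 ± 0.27), Pgk1 (0.88), Tpi1 (0.87) and Pkm (0.83) were each higher in all 8 mice by less than 2-fold, and the group's median was 0.87. The ranges were 147 to 193 CPM against 71.6 to 101 CPM for Pgk1, phosphoglycerate kinase, and 198 to 305 CPM against 97.8 to 168 CPM for Pkm, pyruvate kinase, so neither overlapped. Tpi1, triosephosphate isomerase, was at 308, 252, 253 and 226 CPM in NSC/astrocyte-like barcodes of Tsc2 wt/wt mice and 230.4, 216, 188 and 212 CPM in those of Tsc2 mut/mut mice, above the 98.1 to 164 CPM of neuron-like barcodes. Eno2, the neuronal enolase, went the other way. Its level was 30.2, 24.2, 24.9 and 22.1 CPM in NSC/astrocyte-like barcodes of Tsc2 wt/wt mice and 23.0, 25.8, 39.5 and 31.3 CPM in those of Tsc2 mut/mut mice. In neuron-like barcodes it was 47.8, 42.8, 56.6 and 47.0 CPM in Tsc2 wt/wt mice and 48.2, 50.3, 53.1 and 64.6 CPM in Tsc2 mut/mut mice. Every neuron-like level was above every NSC/astrocyte-like level (log2 ratio -0.88 ± 0.25). With the top 5% of barcodes by UMIs removed this ratio was -0.31.

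Among the 4 lactate genes at the level, Bsg and Slc16a1 were called higher and the lactate dehydrogenases were not. Bsg encodes basigin, the chaperone that brings monocarboxylate transporters to the membrane, and its level was 269, 195, 276 and 212 CPM in NSC/astrocyte-like barcodes of Tsc2 wt/wt mice and 177, 188, 153 and 139 CPM in those of Tsc2 mut/mut mice. Its neuron-like levels lay between 48.9 and 87.7 CPM, without overlap, for a log2 ratio of 1.59 ± 0.37. Slc16a1, the monocarboxylate transporter MCT1, was sparse, at 3.48 to 19.0 CPM in NSC/astrocyte-like and 0 to 6.57 CPM in neuron-like barcodes (log2 ratio 1.5 ± 1.11). Ldhb had a log2 ratio of 0.97 ± 0.25 and Ldha, the muscle-type subunit, of 0.73 (48.8 to 84.6 CPM against 23.2 to 53.2 CPM). Pyruvate entry to mitochondria held 1 called member of 7, Pdk2, a kinase that inhibits pyruvate dehydrogenase, at 32.7 to 74.3 CPM against 6.79 to 21.9 CPM (log2 ratio 1.77 ± 0.68). The pyruvate dehydrogenase subunits had ranges that did not overlap for Pdha1 (62.7 to 81.5 CPM against 31.8 to 53.9 CPM) and that met for Pdhb (28.1 to 59.2 CPM against 12.6 to 29.4 CPM). The pyruvate carrier subunit Mpc1 had a log2 ratio of 0.58 and was higher in all 8 mice, and Mpc2, its partner, was at 101 to 157 CPM against 56.6 to 108 CPM. Pdk1 (0 to 14.1 CPM against 0 to 8.73 CPM) and Pdk4 (5.45 to 21.1 CPM against 0 to 15.5 CPM), kinases of the same family as Pdk2, were sparse and overlapped. G6pdx, which opens the pentose phosphate branch, was called at low levels (9.05 to 17.4 CPM against 2.58 to 12.5 CPM, log2 ratio 1.09 ± 0.85).

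Glycogen genes were called in 3 of 5, with a median log2 ratio of 1.37. Pygb, the brain glycogen phosphorylase that releases glucose units from glycogen, was at a median of 141 CPM (124 to 202) in NSC/astrocyte-like and 38.5 CPM (36.2 to 57.3) in neuron-like barcodes, a log2 ratio of 1.78 ± 0.33. Pygm, the muscle-type phosphorylase that astrocytes also express, was at 25.3 to 87.1 CPM against 3.13 to 21.9 CPM (2.28 ± 1.19). Ugp2, which makes the UDP-glucose used for glycogen synthesis, was at 149.7 to 235 CPM against 69.8 to 101 CPM (1.23 ± 0.23). Of these 3, none had overlapping ranges between the classes. Gys1, the glycogen synthase, ran from 2.35 to 17.4 CPM against 0 to 13.6 CPM, and Gbe1, the glycogen branching enzyme, from 0 to 9.22 CPM against 2.26 to 7.85 CPM, both within overlapping ranges.

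Both oxygen-responsive members were called. Hif1a was at 23.5 to 69.6 CPM in NSC/astrocyte-like and 6.79 to 25.8 CPM in neuron-like barcodes (log2 ratio 1.31 ± 0.43). Vegfa, the vascular growth factor that HIF1A induces, was at 39.3, 41.2, 67.9 and 36.4 CPM in NSC/astrocyte-like barcodes of Tsc2 wt/wt mice and 34.6, 51.6, 42.2 and 31.3 CPM in those of Tsc2 mut/mut mice, against 6.79 to 15.3 CPM in neuron-like barcodes (2.17 ± 0.61). The Vegfa ranges were well apart.

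**Figure D2:**
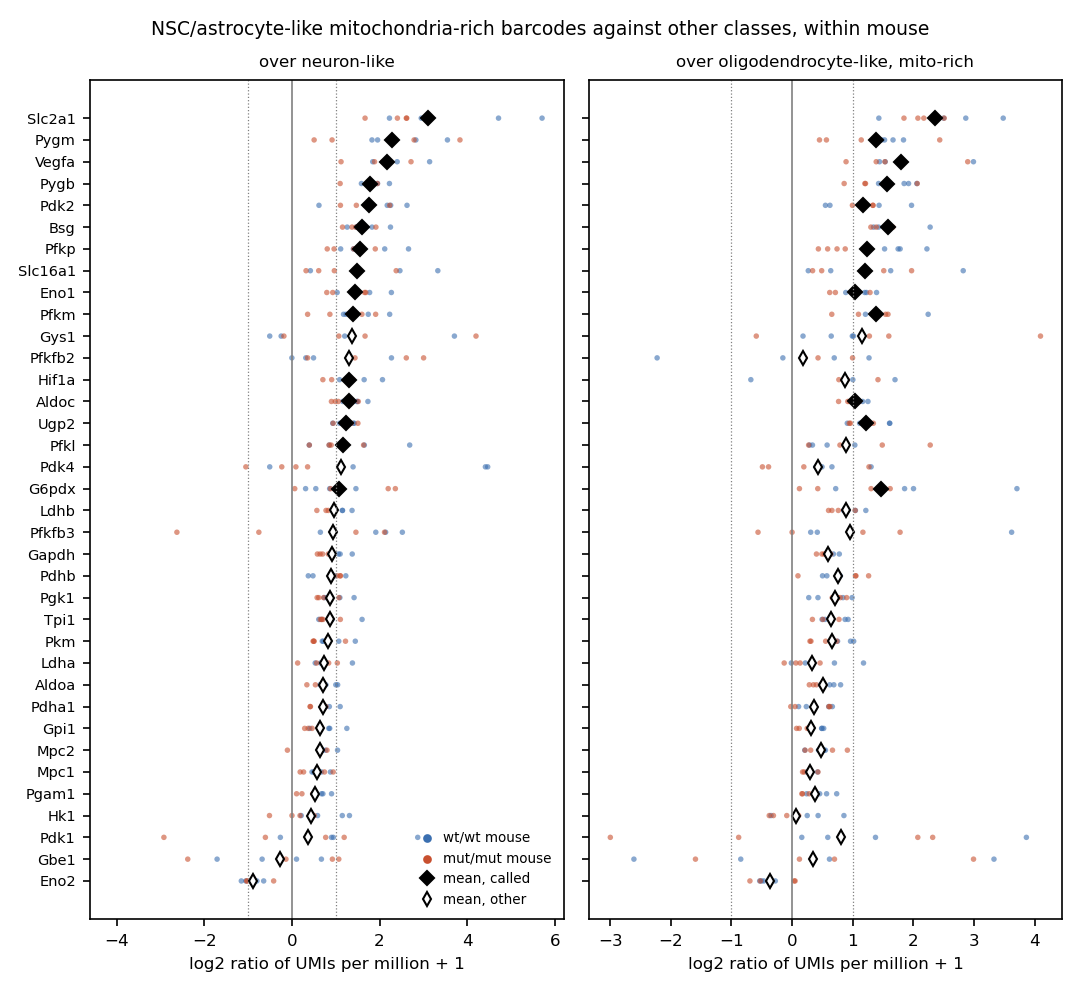
Log2 ratio of CPM + 1 in mitochondria-rich NSC/astrocyte-like barcodes over neuron-like and over mitochondria-rich oligodendrocyte-like barcodes for the 36 members that reached 5 CPM, with 1 small point per mouse and a diamond at the mean of 8 mice, filled where the member was called. The 15 and 13 called members lie to the right of 0 in every mouse, and Eno2 lies to the left in the first panel.

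Against mitochondria-rich oligodendrocyte-like barcodes, 13 of 36 members were called higher and 0 lower, beside 12.6% and 0.47% of all genes, and the median log2 ratio was 0.84 against 0.44. The count depended on how barcodes were classed, with 8 called at resolution 0.4, 5 with classes from marker scores, 4 with at least 200 genes per barcode and 2 with a log-normalised embedding. Slc2a1 had the widest ratio (2.36 ± 0.63), followed by Vegfa (1.80), Bsg (1.58) and Pygb (1.57), while Aldoc had 1.04 ± 0.16. Between neuron-like and oligodendrocyte-like barcodes, 0 of 31 members were called in either direction, and 0.526% of genes were called higher and 0.962% lower. Within this comparison Eno2 was higher in neuron-like barcodes of all 8 mice (0.52 ± 0.26) and Aldoc lower in all 8 (-0.26 ± 0.18), each by less than 2-fold. Oligodendrocyte markers made up 0.522 to 0.806% of UMIs in the oligodendrocyte-like class and 0.437 to 0.662% in low-count barcodes.

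Set against the low-count barcodes of the same library, mitochondria-rich NSC/astrocyte-like barcodes had 12 of 36 members called higher and 0 lower, beside 9.48% and 1.06% of genes. The 12 were Slc2a1 (log2 ratio 2.04), Pygm (1.54), Vegfa (1.46), Pygb (1.43), Bsg (1.34), Slc16a1 (1.34), Pfkm (1.16), Pdk2 (1.15), Ugp2 (1.10), G6pdx (1.10), Eno1 (1.06) and Aldoc (1.05 ± 0.10). Neuron-like barcodes had 0 of 33 called, where 0.302% of genes were higher and 1.96% lower, and Aldoc was at -0.24 ± 0.23. Oligodendrocyte-like barcodes had 0 of 32 called, where 0.0374% of genes were higher and 0.959% lower, and Aldoc was at 0.01 ± 0.09. The part that free RNA had in the members' levels of these 2 classes was not tested.

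The share of mitochondrial UMIs was 40.3 to 45.5% in mitochondria-rich NSC/astrocyte-like barcodes, 48.1 to 60.3% in neuron-like and 46.0 to 52.1% in oligodendrocyte-like barcodes, and it enters the total of every CPM. With the mitochondrial genes left out of the totals, the log2 ratios of all genes moved by -0.31 against neuron-like and by -0.18 against oligodendrocyte-like barcodes. The members called were then 11 higher and 1 lower (Eno2, -1.23) against neuron-like barcodes and 9 higher and 0 lower against oligodendrocyte-like barcodes. The share of all genes called was not counted with these totals. Aldoc kept its direction at 0.95 and 0.84, and the members' median against neuron-like barcodes was 0.79 where that of all genes was 0.32. Over all settings tried for cells and totals, the log2 ratio against neuron-like barcodes ran from 0.88 to 1.29 for Aldoc, so that the 2-fold limit was not met in each, from 1.92 to 3.62 for Slc2a1, from 1.46 to 2.17 for Vegfa and from -1.23 to -0.31 for Eno2.

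Members moved in opposite directions between nucleus-like and mitochondria-rich barcodes of the NSC/astrocyte-like type, and the median ratio was higher in bins of longer genes. Aldoc was at 267, 319.9, 236 and 156 CPM in nucleus-like barcodes of Tsc2 wt/wt mice and at 257, 280.1, 323 and 653 CPM in those of Tsc2 mut/mut mice, where the last value is from the mouse that stood apart. Each of these was below every mitochondria-rich level. Vegfa was the reverse, at 277, 272, 352 and 269.6 CPM in nucleus-like barcodes of Tsc2 wt/wt mice and 265, 199, 268 and 121 CPM in those of Tsc2 mut/mut mice. Gbe1 was at 99.7, 77.4, 66.9 and 80.7 CPM in Tsc2 wt/wt mice and 88.7, 67.5, 67.5 and 30.4 CPM in Tsc2 mut/mut mice, and Gys1 at 49.9, 54.1, 64.0 and 71.5 CPM in Tsc2 wt/wt mice and 71.0, 37.1, 48.4 and 30.4 CPM in Tsc2 mut/mut mice. Both glycogen genes, the branching enzyme and the synthase, were thus higher in nucleus-like than in mitochondria-rich barcodes of all 8 mice, and without overlap. Pfkfb2, whose product activates phosphofructokinase, was at 62.3, 50.4, 58.2 and 62.3 CPM in nucleus-like barcodes of Tsc2 wt/wt mice and 53.2, 37.1, 73.5 and 0 CPM in those of Tsc2 mut/mut mice, against 0 to 20.9 CPM in mitochondria-rich ones, and the 0 in nucleus-like barcodes came from the mouse that stood apart. That mouse held 65883 UMIs in the nucleus-like cluster, where 1 UMI is 15.2 CPM, so its values there rest on few UMIs.

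Of 37 members at the level, 5 were called higher in the nucleus-like cluster and 14 lower, where 27.4% of all genes were higher and 15% lower. The 5 were Gbe1 (log2 ratio 3.94 ± 1.56), Vegfa (2.51 ± 0.40), Gys1 (2.33), Pfkp (1.31) and Pygb (1.08), of which 3 act on glycogen. The 14 lower members included the abundant enzymes Gapdh (-3.31), Aldoc (-3.22 ± 0.75), Tpi1 (-3.13) and Aldoa (-2.78), and Bsg (-2.66). The members' median was -0.94 against 0.90 for all genes. Without the mouse that stood apart, 9 of 36 were higher and 17 lower. With mitochondrial genes out of the totals, 3 were higher and 17 lower, with all genes moved by -0.60. The share of all genes called was not counted in either setting.

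Aldoc spans 4.814 kb and Gapdh 4.753 kb, while Gbe1 spans 255.768 kb on chromosome 16. The 3 members under 5 kb (Aldoc, Tpi1 and Gapdh) had a median log2 ratio of -3.22, beside -1.96 for 1059 genes of that span. The 17 members of 5 to 20 kb had -1.54, beside -0.36 for 3316 genes. The median turned positive above 20 kb. It was 0.79 for 14 members of 20 to 100 kb, beside 1.34 for 5010 genes, and 0.97 for the 3 members of at least 100 kb (Hk1, Slc16a7 and Gbe1), beside 2.66 for 2037 genes. In each bin the members' median was below that of all genes of like span. Single members departed from their bin, with Vegfa (15.377 kb) at 2.51, Pkm (23.008 kb) at -1.74, Gpi1 (29.007 kb) at -1.34 and Hk1 (111.054 kb) at -0.03.

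**Figure D3:**
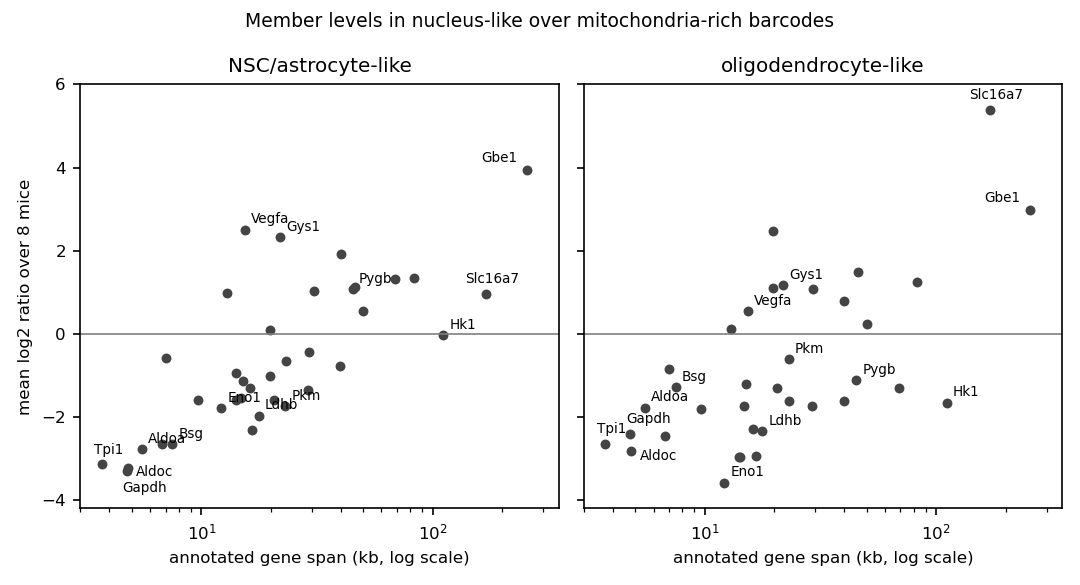
Mean log2 ratio of CPM + 1 in nucleus-like over mitochondria-rich barcodes against gene span in kb (log axis), with 1 point per member, for the NSC/astrocyte-like and the oligodendrocyte-like type. Members under 5 kb lie below 0 and longer members lie on both sides of it in the NSC/astrocyte-like panel, with Gbe1 highest at 3.94, and in the oligodendrocyte-like panel Slc16a7 is the highest point at 5.39.

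Among oligodendrocyte-like barcodes, the transporters of lactate differed between the clusters. Slc16a7, the monocarboxylate transporter MCT2, had a median of 125 CPM (96.5 to 218) in nucleus-like oligodendrocyte-like barcodes, 2.87 CPM (0 to 7.64) in the mitochondria-rich ones and 4.18 CPM (0 to 15.2) in nucleus-like NSC/astrocyte-like barcodes. The lowest of the first group was far above the highest of the others. The level was not particular to oligodendrocyte-like barcodes, since nucleus-like microglia-like barcodes held Slc16a7 at a median of 119 CPM (34.5 to 179.7). Slc16a1, the transporter MCT1 through which oligodendrocytes pass lactate to axons, was at a median of 25.4 CPM (12 to 45.6) in the nucleus-like and 3.30 CPM (1.82 to 7.36) in the mitochondria-rich oligodendrocyte-like barcodes, and it was higher in endothelial-like barcodes, at 134 CPM (35.0 to 171). These were the only 2 of 36 members called higher in nucleus-like than in mitochondria-rich oligodendrocyte-like barcodes (5.39 ± 0.98 and 2.47 ± 0.81), and 17 were lower, beside 25.7% and 13.6% of genes. Without the mouse that stood apart among NSC/astrocyte-like nuclei, 4 of 37 were higher and 18 lower, and with mitochondrial genes out of the totals 2 were higher and 22 lower. For neither setting was the share of all genes counted. The Slc16a1 level in nucleus-like oligodendrocyte-like barcodes rested on 40 UMIs over all mice.

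Between the 2 nucleus-like clusters, 11 of 37 members were higher in the NSC/astrocyte-like one and 1 lower, beside 11.8% and 7.37% of genes. Pfkp (3.85), Vegfa (3.77 ± 1.32), Pygb (3.76 ± 0.65) and Pygm (3.42) led, followed by Eno1 (2.83), Gys1 (2.30), Pfkm (2.24), Ldha (1.69), Ugp2 (1.55), Ldhb (1.27) and Pdhb (1.00), and the member lower was Slc16a7 (-4.75 ± 1.16). Aldoc was not among them. Without Tsc2 mut/mut mouse 4, 13 were higher and 1 lower, and the share of all genes was not counted.

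With nucleus-like and mitochondria-rich NSC/astrocyte-like barcodes summed, 14 of 36 members were higher than in neuron-like barcodes and 1 lower, against 42.6% and 2.8% of genes, so the members' share was below the background. All 5 glycogen members were among the 14, and Vegfa (3.9 ± 0.68), Pfkfb2 (3.15 ± 1.07), Gys1 (2.99 ± 1.27), Slc2a1 (2.91 ± 1.19) and Gbe1 (2.77 ± 1.00) led. The neuronal enolase Eno2 was the member called lower (-1.43 ± 0.44), and Aldoc had 0.42 ± 0.47, higher in 6 of 8 mice. The neuron-like class holds no nucleus-like cluster, so class and compartment cannot be told apart in the summed comparison. With mitochondrial genes out of the totals, all genes moved by -0.62, 8 members were higher and 1 lower, and Aldoc (-0.28), Ldhb (-0.43) and Gapdh (-0.68) had the opposite sign, while Aldoa went from -0.10 to -0.81. Again the share of all genes called was not counted with these totals.

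Paralog shares compare 2 enzymes for the same step as a share of their summed UMIs, which a change in total does not affect. Aldoc made up 85.3% of aldolase UMIs (83.3 to 86.5% over 8 mice) in mitochondria-rich NSC/astrocyte-like barcodes, 79.4% (76.8 to 82.1%) in neuron-like and 80.3% (77.3 to 82.4%) in oligodendrocyte-like barcodes, by median. The NSC/astrocyte-like range did not meet the others. Eno1 made up 86.6% of enolase UMIs (78.8 to 91.2%) in NSC/astrocyte-like, 54.5% (45.7 to 61.5%) in neuron-like and 69.0% (61.8 to 76.2%) in oligodendrocyte-like barcodes. The 3 classes were thus ordered without overlap, and the low-count pool, at 65.9% (57.4 to 78.4%), overlapped the last 2. Ldha took 8.93% (6.98 to 10.7%) of lactate dehydrogenase UMIs in NSC/astrocyte-like barcodes and 6.16 to 15.6% in neuron-like barcodes, so Ldhb dominated in both.

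Among glycogen phosphorylases, Pygb took 75.1% (62.1 to 83.3%) in mitochondria-rich and 92.0% (87.5 to 95.0%) in nucleus-like NSC/astrocyte-like barcodes. The share of Pfkm in the pair of Pfkm and Pfkp was 73.0% (61.8 to 83.7%) in mitochondria-rich NSC/astrocyte-like barcodes and 33.9% (27.4 to 80.0%) in nucleus-like ones, where the highest value was from Tsc2 mut/mut mouse 4. Slc16a1 made up 87.3% (63.6 to 100%) of the 2 monocarboxylate transporters in mitochondria-rich NSC/astrocyte-like barcodes, where a mouse had as few as 1 UMI of the pair, and 16.1% (6.98 to 24.0%) in nucleus-like oligodendrocyte-like barcodes. Between genotypes, the smallest adjusted p of a share was 0.375 (2-sided exact permutation test over mice, Benjamini-Hochberg), but 4 against 4 mice cannot give an unadjusted p below 0.0286, so a single share could hardly pass. The genotypes did not overlap for Pfkm in mitochondria-rich oligodendrocyte-like barcodes (means of 76.6% in Tsc2 wt/wt mice against 65.3%) and for Eno1 in nucleus-like NSC/astrocyte-like barcodes (92.2% against 66.3%), where Tsc2 mut/mut mouse 4 had 25%. For this Eno1 share a mouse had as few as 8 UMIs of the pair. These 2 were picked from all the shares tested, and among so many chance alone can separate the genotypes in some.

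**Figure D4:**
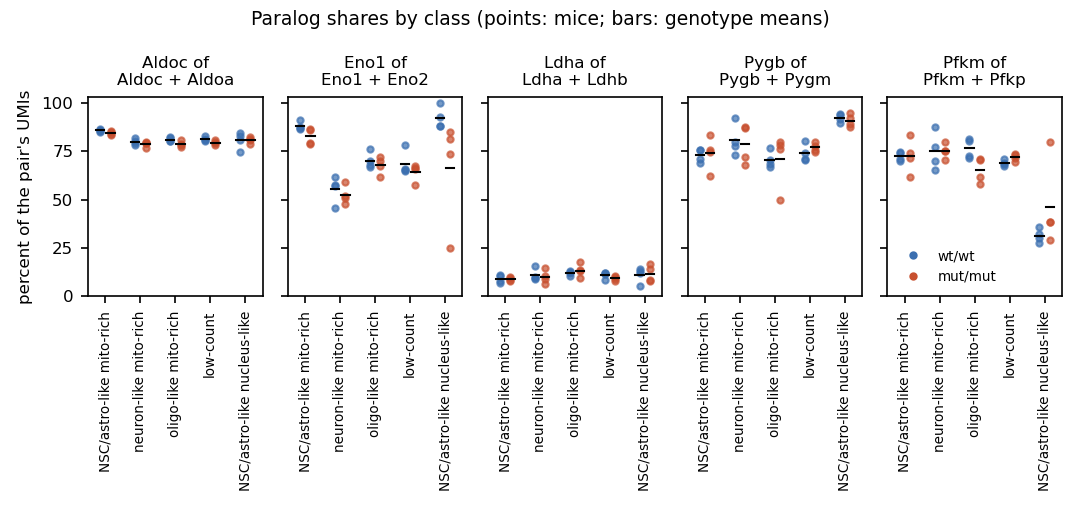
Share of the first gene in the summed UMIs of a pair of paralogs (percent, axis from 0 to 100), for 5 pairs in 5 barcode classes, with 1 point per mouse and a bar at the mean of each genotype. Over the 8 mice, Eno1 goes from a median of 86.6% in mitochondria-rich NSC/astrocyte-like to 54.5% in neuron-like barcodes, and Aldoc lies at or above 76.8% in the mitochondria-rich classes.

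The genotypes were then compared within each class on counts summed per mouse (edgeR quasi-likelihood test, Benjamini-Hochberg over all genes tested, n = 4 mice per genotype). In mitochondria-rich NSC/astrocyte-like barcodes, 1 of 28 members tested changed, Aldoc, which fell by 0.37 on the log2 scale (SE 0.085, adjusted p = 0.0089), among 25 genes called of 3694 (0.677%). Its edgeR adjusted p was 0.058 without Tsc2 wt/wt mouse 3, 0.10 without Tsc2 wt/wt mouse 4 and 0.13 without Tsc2 mut/mut mouse 3, so the call was lost without any of these, while the fold change stayed between -0.43 and -0.33. With at least 500 genes per barcode, which left 7 mice, 0 members were called and Aldoc had -0.32 (SE 0.20). The members' median log2 fold change was -0.24 with 21 of 28 below 0 (75%), where that of all genes was 0.004 with 49.5% below 0. At an unadjusted p under 0.05 there were 8 of 28 members, all with lower values in Tsc2 mut/mut mice, beside 4.44% of genes with lower values. Levels of 7 members did not overlap between genotypes, all lower in Tsc2 mut/mut mice (Aldoc, Gapdh, Ldhb, Gpi1, Pkm, Pgam1 and Bsg), beside 3.28% of genes. The list of NSC/astrocyte markers, which leaves Aldoc out, made up 4.93 to 5.32% of UMIs in Tsc2 wt/wt mice for this class. In Tsc2 mut/mut mice it made up 4.33 to 5.04%, and every mouse of both genotypes had UMIs for 26 of 26 markers. The neuron list made up 0.691 to 0.999% and 0.698 to 1.06%, the oligodendrocyte list 0.223 to 0.325% and 0.248 to 0.325%, and the part of such RNA in the result was not tested. In summed barcodes, fewer cells of a type and less RNA per cell cannot be told apart. In each genotype, the lowest Aldoc level of this class was in the deepest library (Tsc2 wt/wt mouse 2 and Tsc2 mut/mut mouse 3). The part of library depth in the result was not tested.

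Of the members that did not pass the test, Gapdh had a log2 fold change of -0.32 (SE 0.089, edgeR adjusted p = 0.055) and Bsg of -0.47 (SE 0.14, edgeR adjusted p = 0.099). Pgam1, phosphoglycerate mutase of lower glycolysis, was at 248, 257, 226 and 277 CPM in Tsc2 wt/wt mice and 189, 185, 211 and 164 CPM in Tsc2 mut/mut mice, without overlap (log2 fold change -0.38, edgeR adjusted p = 0.23). Ldhb had -0.28 (SE 0.10, edgeR adjusted p = 0.25), Aldoa -0.21 (SE 0.11, edgeR adjusted p = 0.47) and Slc2a1 -0.60 (SE 0.32, edgeR adjusted p = 0.51).

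By role, the values were below 0 for 2 of 2 uptake members, 6 of 6 of upper glycolysis (median -0.37), 6 of 7 of lower glycolysis (median -0.31, with Eno2 at 0.35), 3 of 3 lactate members (median -0.30) and 3 of 3 glycogen members (median -0.19). Pyruvate entry was the exception, with 0 of 5 below 0 and values of 0.02 to 0.12. Mpc1, for example, was at 335, 345, 326 and 302 CPM in Tsc2 wt/wt mice and 327, 314, 303 and 418 CPM in Tsc2 mut/mut mice, with overlap. Hif1a had 0.40 and Vegfa -0.12. Too few UMIs were present to test Hk2, Pfkfb2, Pfkfb3, Slc16a1, Slc16a7, Pdk1, Pdk4, G6pdx, Gys1 and Gbe1. The signs were not particular to this class. In low-count barcodes, values were below 0 for 7 of 8 members of upper and 6 of 7 of lower glycolysis. There they were below 0 for 4 of 5 lactate, 4 of 5 glycogen, 3 of 7 pyruvate entry and 1 of 3 uptake members. Mitochondria-rich oligodendrocyte-like barcodes had 4 of 5, 6 of 7, 3 of 3, 1 of 2, 3 of 5 and 0 of 1 in the same order.

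**Figure D5:**
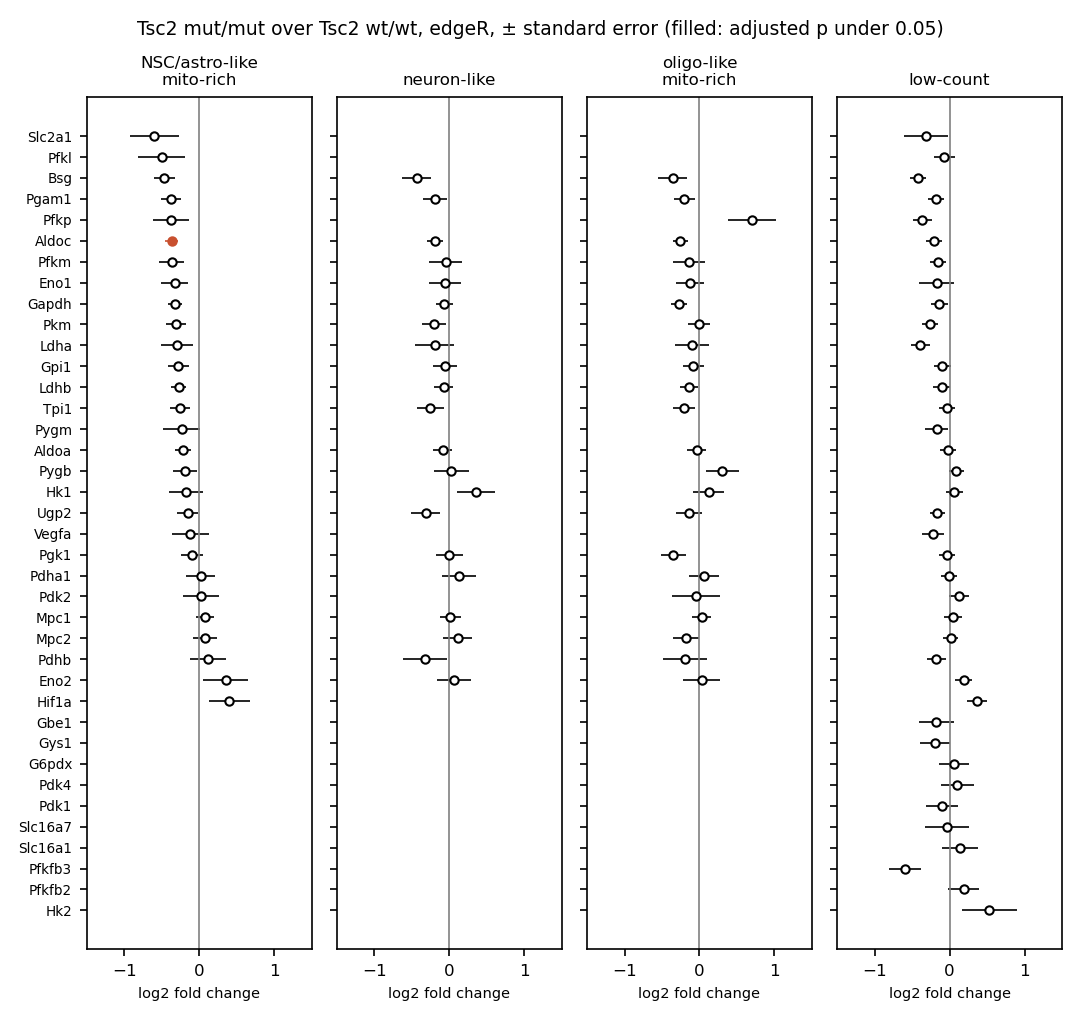
Log2 fold change of Tsc2 mut/mut over Tsc2 wt/wt (edgeR, bars are ± SE, 4 mice per genotype) for the members tested in each of 4 classes, filled where the adjusted p was under 0.05. Aldoc in mitochondria-rich NSC/astrocyte-like barcodes, at -0.37, is the 1 filled point, and 21 of 28 points of that panel lie below 0.

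In neuron-like barcodes 0 of 21 members were called, with 0 of 2723 genes called (0%), 208 genes at an unadjusted p under 0.05 and 0 genes called by DESeq2. Aldoc had a log2 fold change of -0.19 (SE 0.11, edgeR adjusted p = 0.69), and 14 of 21 members were below 0 with a median of -0.07. Mitochondria-rich oligodendrocyte-like barcodes had 0 of 23 members called, with 0 of 3317 genes called (0%), 292 genes at an unadjusted p under 0.05 and 0 by DESeq2. There Aldoc did not overlap between genotypes (log2 fold change -0.25, SE 0.096, edgeR adjusted p = 0.37), Gapdh had -0.27 (SE 0.10, edgeR adjusted p = 0.36), and 17 of 23 members were below 0 with a median of -0.12. Whether the change of Aldoc differed between classes was tested as an interaction. The difference between mitochondria-rich NSC/astrocyte-like and neuron-like barcodes was -0.19 (SE 0.12, edgeR adjusted p = 0.94) for Aldoc and -0.27 (SE 0.13, edgeR adjusted p = 0.94) for Gapdh, and 0 of 28 members were called (0 of 4035 genes, 0%, with 201 at an unadjusted p under 0.05 and 0 by DESeq2), so a change particular to the NSC/astrocyte-like class was not shown.

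Low-count barcodes had 0 of 38 members called, beside 27 of 11880 genes (0.227%). Of the 38, 26 were below 0 (68.4%, median -0.10), where 51.2% of all genes were below 0 (median -0.006). Aldoc levels there did not overlap between genotypes (log2 fold change -0.21, SE 0.11, edgeR adjusted p = 0.67), and Bsg had -0.42 (SE 0.11, edgeR adjusted p = 0.16). In all, 7 members did not overlap, 6 of them lower in Tsc2 mut/mut mice, beside 3.85% of genes that were lower. The genotype difference of Aldoc in mitochondria-rich NSC/astrocyte-like barcodes could therefore be set against that of the same libraries' low-count barcodes. The ratio of the Aldoc levels was 2.18 ± 0.13 (2.05 to 2.31) in Tsc2 wt/wt mice and 1.97 ± 0.079 (1.90 to 2.07) in Tsc2 mut/mut mice (2-sided exact permutation test, p = 0.0571, n = 4 mice per genotype), a comparison chosen after the data were seen. The ranges overlapped.

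Nucleus-like NSC/astrocyte-like barcodes had 0 of 28 members called, with 0 of 6022 genes called (0%), 403 at an unadjusted p under 0.05 and 1 gene called by DESeq2. Aldoc had a log2 fold change of 0.74 (SE 0.48, edgeR adjusted p = 0.79) with all mice and 0.20 (SE 0.20) without Tsc2 mut/mut mouse 4. Without that mouse 31 members were tested, 18 were below 0 and the median was -0.05. With the nucleus-like and mitochondria-rich barcodes summed, 0 of 35 members were called (0 of 8472 genes, 0%, with 179 at an unadjusted p under 0.05 and 4 by DESeq2), and Aldoc had -0.02 (SE 0.45) with all mice and -0.49 (SE 0.24, edgeR adjusted p = 0.95) without Tsc2 mut/mut mouse 4. The interaction of the summed class with neuron-like barcodes had 0 of 34 members called, beside 3 of 7831 genes (0.0383%).

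In nucleus-like oligodendrocyte-like barcodes, 10 members had enough UMIs and 0 were called, beside 2 of 3077 genes (0.065%). All 10 had values above 0, and 5 of them had an unadjusted p under 0.05 with higher values in Tsc2 mut/mut mice, beside 7.34% of genes, where DESeq2 called 56 genes. A member could pass the count filter through the mice of 1 genotype alone, so the shared sign of the 10 is not independent of the filter. Ldhb, for example, was at 96.5 CPM in Tsc2 wt/wt mouse 2 and at 23.5 to 30.3 CPM in the other Tsc2 wt/wt mice. NSC/astrocyte markers made up 0.235 to 0.594% of UMIs in Tsc2 wt/wt mice and 0.604 to 0.929% in Tsc2 mut/mut mice for this class, with 13 of 26 seen in every mouse and 0 absent from all. The neuron list made up 0.123 to 0.265% and 0.284 to 0.367%, with 13 of 33 seen in every mouse and 2 in none, and mitochondrial UMIs 6.43 to 10.7% and 10.1 to 23.4%. The part of such RNA in the result was not tested. The oligodendrocyte-like barcodes summed had 0 of 29 members and 0 of 5839 genes called (0%), with 191 genes at an unadjusted p under 0.05 and 1 called by DESeq2. Over all kept barcodes, 0 of 38 members were called and 0 had an unadjusted p under 0.05 (2.58% of genes), beside 2 of 13060 genes called (0.0153%), and the widest value was that of Vegfa (-0.55, SE 0.28).

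A further list of 77 genes of the same pathways, among them regulatory subunits, enzymes of glycogen breakdown and HIF targets, gave the setting of the members. In mitochondria-rich NSC/astrocyte-like over neuron-like barcodes, 48 of its genes reached the level, with a median log2 ratio of 0.89 beside 0.60 for all genes. Of the 48, 13 were called higher, beside 17.4% of all genes. Named after their values were seen, these were Arnt, Dld, Gpd2, Kdm3a, Pcx, Pdhx, Pdp2, Pgm1, Phkb, Phkg1, Ppp1r3d, Ppp1r3g and Tkt. Among them Phkb and Phkg1 encode subunits of the kinase that activates glycogen phosphorylase, Ppp1r3d and Ppp1r3g target a phosphatase to glycogen, Pcx encodes the pyruvate carboxylase of astrocytes, and Arnt encodes the partner of HIF1A. In the genotype comparison of mitochondria-rich NSC/astrocyte-like barcodes, 25 of the list were tested and 0 were called by edgeR. At an unadjusted p under 0.05 there were 3 of the 25, beside 395 of 3694 genes.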

How the data were processed

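Single-nucleus 3′ RNA libraries were made from tdTomato-positive V-SVZ nuclei of 8 mice, 4 per genotype. The authors deposited raw UMI counts per gene and barcode, made with Cell Ranger on GRCm38 (mm10) with the number of barcodes forced to 60000. The submitters' processing notes also name Seurat 4. The counts are not normalised, and unspliced nuclear RNA and cytoplasmic RNA are counted together. No authors' cell annotation was used, so classes were rebuilt and may differ from those of the study. The sort gate left out doublets of nuclei, but droplets holding more than 1 nucleus can form later. No doublet caller was run, and removal of the top 5% of barcodes by UMIs was tried as an alternative.

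Barcodes with at least 300 genes were clustered with the 38 members and the listed pathway genes left out (scanpy 1.11.5, leidenalg 0.10.2, Python 3.11.15, Pearson residuals with theta 100, 2000 variable genes, 30 components, 20 neighbours, resolution 0.8). Clusters were named from marker lists. A cluster was called nucleus-like where mitochondrial transcripts made up under 25% of its summed UMIs, and mitochondria-rich otherwise. Counts were summed per mouse and class, with at least 10 barcodes. Genotypes were compared with edgeR 4.0.16 in R 4.3.3 (TMM, filterByExpr, robust quasi-likelihood, Benjamini-Hochberg over all genes, threshold 0.05), with DESeq2 1.42.0 as an alternative, and the pipeline was tested on simulated data. There, changes of 1.5-fold were recovered in 36.4% of cases in mitochondria-rich NSC/astrocyte-like barcodes. The share was 41.9% in neuron-like barcodes, 0% in nucleus-like NSC/astrocyte-like barcodes and 20.9% in the interaction of mitochondria-rich NSC/astrocyte-like with neuron-like barcodes. A count of 0 therefore does not exclude changes of this size. False calls were at most 8% of calls. CPM are counts scaled to 1000000 UMIs per mouse and class. Class ratios used log2(CPM + 1) and understate the ratio of low genes. Paralog shares were tested where each mouse had at least 5 UMIs of the pair. Gene positions are from GENCODE M21.

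All 38 members are accounted for. Values per mouse are given for Aldoc, the 5 most abundant members, the 5 with the largest ratio in each direction between summed NSC/astrocyte-like and neuron-like barcodes and any past the genotype threshold, and the others by range or ratio. The members and lists were chosen with earlier results of these data known. Total UMIs per library were 11182335 to 36773832. A CPM below about 10 rests on few UMIs in most mice. In nucleus-like classes higher values can do so too. Tsc2 mut/mut mouse 4 held 65883 UMIs in nucleus-like NSC/astrocyte-like barcodes, where 1 UMI is 15.2 CPM. It held 36616 UMIs in nucleus-like oligodendrocyte-like barcodes. The mice are the replicates, the labels give no batch, and no column was left without a sample. The authors' comparisons were not used.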

Additional observations from a re-analysis of the deposited data

Results flagged for a closer look

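A sample was marked where its gap to the nearest of the other 3 mice of its genotype exceeded Dixon's critical value. This held for 19 of 124 groups tested, and chance alone marks about 5%.

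Tsc2 mut/mut mouse 4 gave 9 of the 19, all high. In nucleus-like NSC/astrocyte-like barcodes it held Aldoc at 653 CPM, Gapdh at 516 CPM, Mpc1 at 349 CPM, Pgam1 at 182 CPM, Bsg at 91.1 CPM and Eno2 at 91.1 CPM, in the cluster where it had 62 barcodes and 34.8% mitochondrial UMIs. Over all kept barcodes it held Gapdh at 986 CPM, Aldoa at 488 CPM and Bsg at 408 CPM. Choroid plexus-like barcodes, with medians of 1681, 1127 and 2186 CPM for these genes, numbered 197 of its 4179 kept barcodes. In Tsc2 mut/mut mice 1 to 3 they numbered 82 of 5525, 30 of 3394 and 186 of 10153. They numbered 46 of 1923, 24 of 7427, 1 of 2186 and 32 of 3094 in Tsc2 wt/wt mice 1 to 4. The part of these barcodes in the levels was not tested.

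In mitochondria-rich NSC/astrocyte-like barcodes, Aldoc was low in Tsc2 wt/wt mouse 2 (2695 CPM, on the side of the Tsc2 mut/mut mice), Slc2a1 was high in Tsc2 wt/wt mouse 1 (51.4 CPM), Vegfa was high in Tsc2 wt/wt mouse 3 (67.9 CPM) and Gys1 was low in Tsc2 wt/wt mouse 4 (6.32 CPM). Vegfa was also high in the nucleus-like barcodes of Tsc2 wt/wt mouse 3 (352 CPM). Aldoc was low in neuron-like barcodes of Tsc2 mut/mut mouse 2 (839.9 CPM), and so was Ldhb in its mitochondria-rich oligodendrocyte-like barcodes (287 CPM). Ldhb was high in nucleus-like oligodendrocyte-like barcodes of Tsc2 wt/wt mouse 2 (96.5 CPM) and over all kept barcodes of Tsc2 wt/wt mouse 1 (557 CPM), whose low-count barcodes held Bsg at 107 CPM. The causes were not tested.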

How the results depend on the processing

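The mitochondria-rich NSC/astrocyte-like genotype comparison, with 1 member called, gave 2 with DESeq2, with mitochondrial genes removed and with library size only (Aldoc and Gapdh), 2 with the top 5% by UMIs removed, at resolutions 0.4 and 1.6 and with classes from marker scores (Aldoc and Bsg), 1 with at least 200 genes (Bsg at -0.69, with Aldoc at -0.46 and an edgeR adjusted p of 0.055) 0 with a log-normalised embedding (Aldoc at -0.33, edgeR adjusted p = 0.090) and 0 with at least 500 genes, which left out Tsc2 mut/mut mouse 4 (Aldoc at -0.32, SE 0.20). Leaving out 1 mouse gave 0 to 3, with 3 without Tsc2 wt/wt mouse 2 and 2 without Tsc2 mut/mut mouse 4. With at least 200 genes and at resolution 0.4, no NSC/astrocyte-like cluster was nucleus-like. The summed NSC/astrocyte-like class was then the mitochondria-rich one, and its fits in both settings are those already given. Nucleus-like oligodendrocyte-like barcodes, with 0, gave 0 to 2 with 1 mouse left out, the 2 being Gapdh (1.24) and Ldhb (2.17) without Tsc2 wt/wt mouse 2.

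Replicate numbers did not pair the mice, with correlations of same-numbered deviations from -0.42 to 0.22. With the replicate block, Aldoc in mitochondria-rich NSC/astrocyte-like barcodes had -0.37 (edgeR adjusted p = 0.0227) and 21 genes were called in place of 25, while neuron-like barcodes had 8 in place of 0, low-count barcodes 35 in place of 27 and all kept barcodes 0 in place of 2.

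Of the class counts, summed NSC/astrocyte-like over neuron-like, at 15, became 9 with mitochondrial genes left out. With at least 200 genes and at resolution 0.4 the summed class held no nucleus-like barcodes. Its counts in those settings are the ones given next for the mitochondria-rich class. Mitochondria-rich NSC/astrocyte-like over neuron-like, at 15, became 9, 9 and 8 with at least 200 genes, at resolution 0.4 and with marker scores, and 14 to 16 with 1 mouse left out. Over mitochondria-rich oligodendrocyte-like barcodes, 13 became 4, 8, 5 and 2 with at least 200 genes, at resolution 0.4, with marker scores and with the log-normalised embedding. Neuron-like over oligodendrocyte-like, at 0, became 2 with the top 5% removed, 1 at resolution 1.6 and 0 to 1 with 1 mouse left out. Signs turned for Aldoc in nucleus-like NSC/astrocyte-like barcodes (-0.45 with marker scores), Bsg in mitochondria-rich NSC/astrocyte-like barcodes (0.0038 with at least 500 genes) and Aldoa in low-count barcodes (0.0066 with no filter, -0.066 to 0.055 with 1 mouse left out). Gbe1 in NSC/astrocyte-like over neuron-like barcodes was at -0.030 at resolution 0.4, where the first class held mitochondria-rich barcodes only.

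Genes called in mitochondria-rich NSC/astrocyte-like barcodes rose from 25 to 56 (at least 200 genes), 45 (top 5% removed), 50 and 55 (resolutions 0.4 and 1.6) and 46 (marker scores), were 0 with at least 500 genes, and ran from 11 to 48 with 1 mouse left out. With no filter on low counts, calls were 110 in place of 27 in low-count, 9 in place of 0 in neuron-like, 225 in place of 0 in nucleus-like and 30 in place of 0 in summed NSC/astrocyte-like, and 100 in place of 2 in nucleus-like oligodendrocyte-like barcodes. DESeq2 called 7 in place of 2 over all kept barcodes and 1 in place of 3 in the interaction of summed NSC/astrocyte-like with neuron-like barcodes.

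Results for single genes stayed the same in 1004 cases, moved in 116, passed in 11, lost the call in 7 and turned in 6. For genotype comparisons, the same meant the same direction and side of the threshold. For class ratios, it meant a ratio within the SD of the main ratio, whether or not the 2-fold call held. With at least 500 or 1000 genes, genotype fits within classes used 7 mice, since Tsc2 mut/mut mouse 4 had fewer than 10 barcodes in each, neuron-like and mitochondria-rich oligodendrocyte-like barcodes, and at 1000 genes mitochondria-rich NSC/astrocyte-like ones, were too few to fit, and class ratios and paralog shares were not run, low-count barcodes under 100 genes were not run, and the log-normalised embedding, chosen after the data were seen, gave no neuron-like class. Marker scores placed 9252 of 37881 barcodes (24.4%) near their limit. Depth limits members under about 10 CPM, and 10 of 38 could not be tested in mitochondria-rich NSC/astrocyte-like barcodes. In nucleus-like classes of the shallowest mice this limit is higher. The causes of these changes were not tested.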

Other observations

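Members also varied in small clusters outside the 3 cell types compared. Endothelial-like barcodes (137 in all, 6 mice with at least 10) held Bsg at a median of 3548 CPM (2487 to 5155) and Slc2a1 at 1418 CPM (700.5 to 1602), beside 11.7 to 51.4 CPM of Slc2a1 in mitochondria-rich NSC/astrocyte-like barcodes. Both products mark the blood-brain barrier. Gbe1 was at 325 CPM (105 to 534) in the same barcodes.

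Choroid plexus-like barcodes (598, 7 mice), a nucleus-like cluster, held Bsg at 2186 CPM (1751 to 4757) and Gapdh at 1681 CPM (1370.0 to 2215). Ldhb was there at 1577 CPM (1026 to 1888), Aldoa at 1127 CPM (953 to 1279) and Aldoc at 110 CPM (48.2 to 226). The nucleus-like NSC/astrocyte-like and oligodendrocyte-like barcodes held Aldoc at 273 CPM (156 to 653) and 238 CPM (60.5 to 355), with ranges that overlapped it. Ependymal-like barcodes (339, 7 mice) held Aldoc at 210.6 CPM (0 to 859), Pygb at 199.6 CPM (118 to 309) and Slc2a1 at 66.8 CPM (0 to 147). Nucleus-like microglia-like barcodes held Hk2, sparse elsewhere, at 211 CPM (34.5 to 419). An unnamed cluster of 5138 barcodes held Aldoc at 1870.3 CPM (1581 to 2444). These values are medians over mice, with the range, and the sizes of these clusters limit their precision.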
